A study of Mus musculus with 8 samples.

Results

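Group 2 innate lymphoid cells (ILC2) made up 3719 of the 46314 cells carrying 1 sample tag in single-cell RNA sequencing of CD45.2+ cells sorted from the brain parenchyma of perfused mice. A cell was counted as an ILC2 when at least 3 of the 7 transcripts Gata3, Il1rl1, Areg, Calca, Rnf128, Ccr8 and Hs3st1 had a unique molecular identifier (UMI, 1 count per captured transcript molecule) and when Cd3e, Cd79a, Mcpt8 and C1qa, which mark T cells, B cells, basophils and macrophages, had none. The cells were thus selected on the measured values of these 7 genes, whose levels are given as a description of that choice.

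The 8 libraries came from C57BL/6J wild-type (WT) mice and App NL-G-F mice, knock-in mice whose App gene carries a humanized amyloid-beta sequence with the Swedish, Arctic and Iberian mutations, all labelled as 16 weeks old. Each genotype was sampled as a control on plain water, in acute colitis after 1 week of 2% dextran sulfate sodium (DSS) in the drinking water, in chronic colitis after 3 cycles of 2% DSS and plain water lasting 5 days each, and in food allergy, for which the study's methods give ovalbumin with alum by injection and then ovalbumin by mouth. The knock-in is a model of amyloid deposition carried from birth in every cell. With 1 library for each genotype and treatment, a treatment and the library that carries it cannot be told apart. Within a library, cells were separated by 4 antibody hashtags into 30 hashtag groups in all, and these groups were the units of the tests, except where libraries are named as the units. The labels do not tie a hashtag to a single mouse, so the p-values measure only the spread between these groups, which may be partly technical. App NL-G-F chronic colitis was split over 4 hashtags. The study counts fewer animals than that for this library, so some of its hashtag groups may share a mouse and p-values that use them may be too small.

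ILC2 are lymphocytes without an antigen receptor that sit in barrier tissues, fat and the meninges. They depend on the transcription factors GATA3 and RORα, respond to the alarmins interleukin-33 and interleukin-25 through the receptors encoded by Il1rl1 and Il17rb and to neuropeptides and lipid mediators, and release interleukin-5, interleukin-13 and the epidermal growth factor receptor ligand amphiregulin (Areg). They also make calcitonin gene-related peptide (CGRP) from the Calca gene, and carry the co-receptor RAMP1 with which this peptide is sensed.

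The DNA just upstream of 6 genes is shown because the levels of these genes carry the results below. The sequences are the 120 bases before the RefSeq start of each gene in GRCm38.p6, 5′ to 3′ on the gene's own strand. They were searched for letters bound by factors known to act in ILC2, and the capitals mark matches, on either strand, to the GATA motif AGATAA (or the same letters with T in first place, G in last place, or both), to the cAMP response element TGACGTCA, to its core, the first 5 letters of that element, and to the AP-1 motif TGACTCA.
Calca, chr7:114636358-114636477, minus strand: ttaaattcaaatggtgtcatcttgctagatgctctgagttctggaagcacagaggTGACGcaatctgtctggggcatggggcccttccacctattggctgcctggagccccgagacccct
Ramp3, chr11:6658413-6658532, plus strand: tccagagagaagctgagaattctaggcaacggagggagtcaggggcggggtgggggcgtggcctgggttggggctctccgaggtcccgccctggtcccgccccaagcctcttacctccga
Pdcd1, chr1:94052554-94052673, minus strand: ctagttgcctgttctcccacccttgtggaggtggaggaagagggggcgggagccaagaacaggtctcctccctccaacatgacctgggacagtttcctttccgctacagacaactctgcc
Areg, chr5:91139479-91139598, plus strand: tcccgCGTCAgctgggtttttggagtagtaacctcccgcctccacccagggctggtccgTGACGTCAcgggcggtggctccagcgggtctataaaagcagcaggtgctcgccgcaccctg
Il5, chr11:53720674-53720793, plus strand: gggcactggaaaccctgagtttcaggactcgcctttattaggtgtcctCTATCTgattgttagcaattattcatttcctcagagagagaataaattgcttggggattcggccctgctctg
Il13, chr11:53634703-53634822, minus strand: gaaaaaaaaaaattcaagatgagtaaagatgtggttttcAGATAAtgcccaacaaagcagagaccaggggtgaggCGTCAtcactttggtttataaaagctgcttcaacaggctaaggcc
In these windows Calca held 1 core, Areg a full cAMP response element with a further core upstream, Il5 a GATA motif, and Il13 both a GATA motif and a core. Ramp3 and Pdcd1 held none of the motifs. Over the same 120 bases upstream of 27025 genes, 13.03% held at least 1 of the GATA motifs, 11.9% the core, which the full element contains, 1.31% the full element and 2.26% the AP-1 motif. These are letter matches and not measured binding.

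The cells carried the transcripts of the ILC2 programme that the selection did not use. Over 11833638 UMIs, with a median of 2748 UMIs and 1282 genes per cell, the interleukin-7 receptor chain Il7r stood at 1275 CPM (counts scaled to 1000000 UMIs in all) and was detected in 94.9% of the cells. Il17rb stood at 117 CPM and was detected in 27.9% of ILC2 against 0.406% of B cells, a lymphocyte expected to lack it, whose median depth was 2553 UMIs. After each cell was thinned to 1000 UMIs, 11.1% of ILC2 had an Il17rb UMI.

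Levels of transcription factors are given beside those of the other lymphocytes sorted alongside, as a description. Gata3, whose level was fixed in part by the selection, stood at 634 CPM in ILC2, at 97.0 CPM in conventional CD4 T cells and at 60.7 CPM in the class of natural killer (NK) cells and ILC1. Pparg, a lipid-sensing nuclear receptor, stood at 92.4 CPM against 3.26 CPM in CD4 T cells. Rora reached 214 CPM, given without the level in other lymphocytes. Tcf7, a factor of ILC precursors and naive T cells, stood at 19.2 CPM against 297 CPM in CD4 T cells.

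Some receptors for neural and lipid signals, Nmur1 and Cysltr1, were a second mark of the class. Nmur1, the receptor of the neuropeptide neuromedin U, stood at 94.9 CPM in ILC2, 2.09 CPM in CD4 T cells and 0.759 CPM in NK cells. Ramp1 stood at 245 CPM, and Vipr2, a receptor for vasoactive intestinal peptide, at 39.6 CPM, both given without the level in other lymphocytes. Ramp1 was not among the 60 genes with the highest ratio to other lymphocytes in the ranking below. The leukotriene receptor Cysltr1 stood at 196 CPM against 11.9 CPM in CD4 T cells. Ptgdr2, the prostaglandin D2 receptor often used to stain ILC2, was nearly undetected at 1.44 CPM, and 0.161% of the cells had a UMI of it. Of the homing genes, S1pr1 and Ccr7, which guide cells out of tissue and into lymph nodes, stood at 2.54 and 4.23 CPM in ILC2 against 112 and 58.2 CPM in CD4 T cells. Cxcr6, a chemokine receptor of resident lymphocytes, stood at 389 and 386 CPM.

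Ranked by the ratio of mean CPM in ILC2 to the highest of CD4 T cells, regulatory T cells and NK cells, with 10 CPM added, the first 3 genes were the selecting genes Calca, Hs3st1 and Rnf128. The genes that followed were Lpcat2, an enzyme of membrane lipid synthesis (381 CPM ± 78.4, SD over the 26 hashtag groups with at least 20 ILC2), the amino acid transporter Slc7a8 (225 CPM ± 78.8) and Tcrg-C1, a T cell receptor gamma constant segment (252 CPM ± 151). Of 3018 genes at 50 CPM or more in ILC2, 104 had a log2 ratio above 1.

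**Figure D1:**
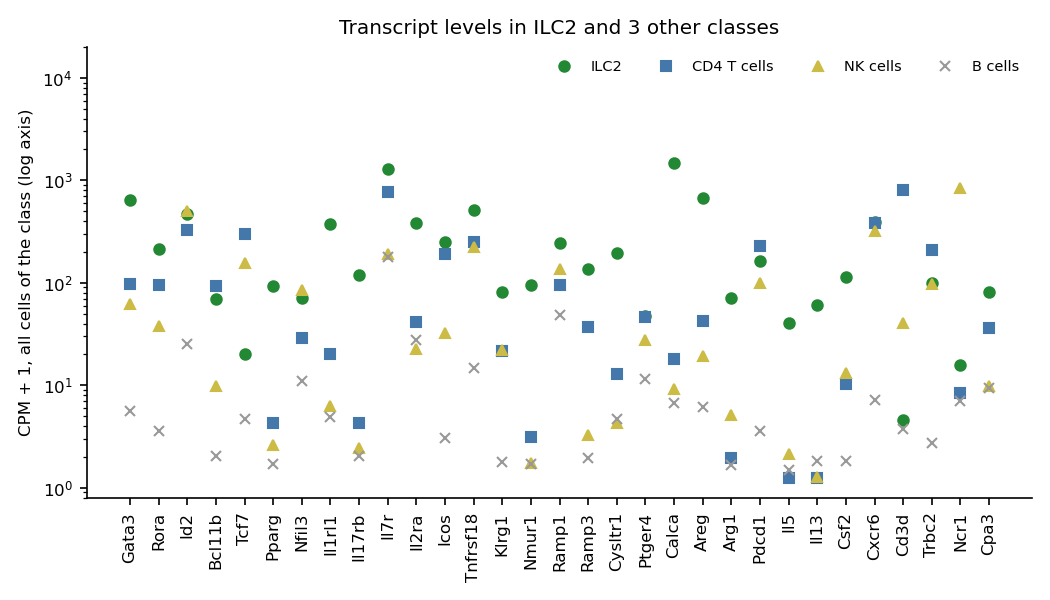
Transcript levels of fixed marker genes in ILC2, CD4 T cells, NK cells and B cells, as CPM with 1 added on a log axis, over all cells of each class. Gata3, Il1rl1, Il17rb, Nmur1, Cysltr1 and Arg1 sit highest in ILC2, Cd3d in CD4 T cells and Ncr1 in NK cells. Gata3, Il1rl1, Calca and Areg were among the genes that chose the cells.

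Over all libraries, control and challenged, effector transcripts were found in a minority of the cells. Arg1, which encodes the arginine-degrading enzyme of ILC2 and macrophages, stood at 69.3 CPM and was detected in 16.9% of ILC2 against 0.254% of B cells. Csf2 (112 CPM), Il4 (66.3 CPM), Il13 (59.7 CPM) and Il5 (39.4 CPM) were detected in 10.1%, 16.8%, 5.51% and 2.90% of the cells. No UMI of Il9, Il10, Il3, Il22 or Il17f was found, which allows each of them a level of up to 0.254 CPM, the level of 3 counts over the class.

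Markers of other cell types were low, with exceptions that bear on later comparisons. The T cell receptor complex gene Cd3d stood at 3.55 CPM against 806 CPM in CD4 T cells, and the NK receptor Ncr1 at 14.8 CPM against 845 CPM in NK cells. Cd3g, of the same complex as Cd3d, was detected in 6.18% to 10.1% of ILC2 grouped by how many selecting genes they had. Trbc2, a T cell receptor beta constant segment, was detected in 23.2% of ILC2 at 99.6 CPM while B cells had 1.75 CPM. The mast cell genes Cpa3 (80.7 CPM) and Mcpt4 (251 CPM) came from few cells, 1.53% and 1.61% of the class. The neutrophil gene S100a8 stood at 2943 CPM in ILC2 and at a similar level in B cells (2756 CPM), and 14.4% of ILC2 and 17.6% of B cells had a UMI of it.

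Cells just inside and just outside the threshold differed in some markers and not in others. Among the 1024 cells with exactly 3 of the 7 genes, 92.2% had Il7r, 1.56% Ncr1 and 2.15% Cpa3. Among the 736 cells with exactly 2, which were left out, 77.3% had Il7r, 8.70% Ncr1 and 9.38% Cpa3. In the same order, Rora was found in 36.0% and 25.3%, Il17rb in 24.7% and 18.6%, and Lyz2 in 7.52% and 11.8%. Cd74 (13.3% and 16.4%) and Cd3g (10.1% and 9.92%) differed little. The exclusion genes removed a further 497 cells with at least 3 of the 7 transcripts, 293 of them through Cd3e.

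The hashtag groups of every library fell into 2 sets. In T cells, the summed level of 10 immediate-early genes (Btg2, Dusp1, Egr1, Fos, Fosb, Ier2, Jun, Junb, Nr4a1 and Zfp36), transcripts that rise within minutes of stimulation or tissue handling, ran from 774 to 1923 CPM in 14 groups and from 3704 to 7188 CPM in the other 16, with none in between. These are called the low and the high set, and they are sets of samples defined from these data, not labelled groups. Hashtags 6 and 7 were high in the control and chronic colitis libraries and hashtags 4 and 5 in the acute colitis and allergy libraries, in both genotypes.

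In their immediate-early genes the ILC2, which were not used for the split, followed it. The same 10 genes summed to 1001, 2274 and 5147 CPM (lowest, median, highest) over the 10 low groups with at least 20 ILC2 and to 8947, 14612 and 21927 CPM over the 16 high groups, with no overlap. Areg, Ccr8 and Rnf128 were among the genes that selected the cells, so their levels by set are only a description. Whether they differed between the sets in cells chosen without each of them was not tested. Areg ran from 9.65 to 352 CPM (median 26.8) in the low set. In the high set it ran from 369 to 1245 CPM (median 710), so that the low groups all lay under the high ones. Ccr8, a chemokine receptor gene, ran from 49.1 to 216 CPM in the low set and from 128 to 663 CPM in the high set, whereas Rnf128, which encodes the ubiquitin ligase GRAIL, tended the other way (516 to 987 CPM against 312 to 614 CPM). What made the sets was not tested.

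**Figure D2:**
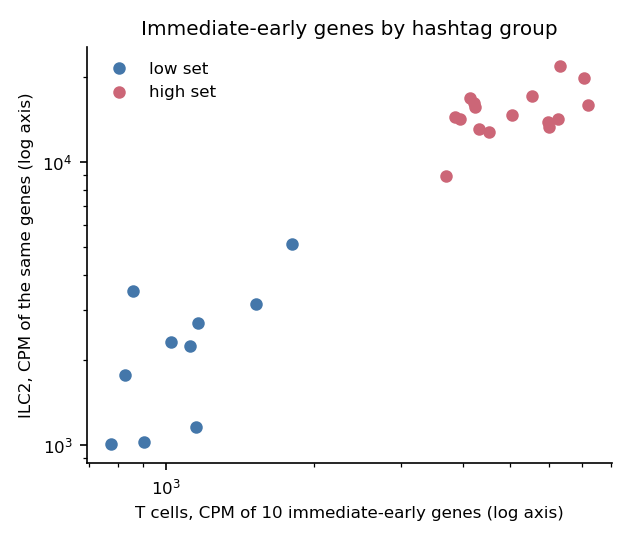
Summed CPM of 10 immediate-early genes in T cells (x axis) and in ILC2 (y axis), both on log axes, with 1 point for each of the 26 hashtag groups holding at least 20 ILC2. The low set, up to 5147 CPM in ILC2, and the high set, from 8947 CPM, do not overlap on either axis.

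Within a set, 5 ILC2 measures were set against the immediate-early level of T cells, which gave 10 relations. For the immediate-early level of ILC2 the coefficients were positive in both sets, with Pearson's r = 0.655 (permutation p = 0.0399, adjusted 0.202) and Spearman's rho = 0.612 (permutation p = 0.0671, adjusted 0.336) over 10 low groups, and r = 0.506 (permutation p = 0.0405, adjusted 0.202) and rho = 0.347 (permutation p = 0.188, adjusted 0.470) over 16 high groups. Without the 2 groups farthest from the median of the x axis, r was 0.259 and 0.413. None of the 10 relations passed after adjustment, Il13, Il5, Csf2 and Arg1 included.

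The first comparison asked whether colitis, allergy or genotype changed how many ILC2 were recovered. ILC2 were 18.6% and 16.7% of the cells in the 2 high groups of the WT control and 14.2% and 13.7% in those of the App NL-G-F control. In acute colitis the 4 high groups held 7.71% and 9.49% in WT and 7.02% and 6.62% in App NL-G-F. In food allergy they held 9.81% and 8.59% in WT and 8.05% and 9.65% in App NL-G-F. Every high control group thus lay above every high group of acute colitis and of allergy.

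Chronic colitis was more uneven. Its high groups held 7.34% and 17.3% in WT and 7.90% and 11.4% in App NL-G-F, so that 1 of them reached the control range. In the low set the groups with at least 50 cells ran from 0.932% in the App NL-G-F control to 14.2% in WT allergy, and a group of 108 cells in WT acute colitis held 13 ILC2 (exact Clopper-Pearson 95% interval 6.57% to 19.7%). Such intervals cover counting error only.

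Averaged over both genotypes in the high set, ILC2 were 7.71% ± 1.27 (SD, n = 4) in acute colitis against 15.8% ± 2.30 (SD, n = 4) in controls, a difference of -8.08 percentage points with p = 0.0286 in a two-sided exact permutation test, the smallest that 4 against 4 groups can give, and 0.0857 adjusted over 6 such comparisons. Food allergy stood at 9.02% ± 0.844 (SD, n = 4), a difference of -6.76 points with the same exact permutation p of 0.0286 and the same adjusted value of 0.0857. Chronic colitis stood at 10.98% ± 4.56 (SD, n = 4), a difference of -4.81 points (exact permutation p = 0.143). None of these passed after correction. With so few groups no outcome could have passed over 6 comparisons, so the adjusted values cannot decide. A share moves with every other cell type in the sort, and neutrophils made up 2.93% to 25.8% of the cells in the high groups. The depth of the ILC2 themselves also moved with treatment, with group medians of 1914 to 2252 UMIs in the high control groups and 2697 to 3558 UMIs in the high treated groups. The share also rests on the selecting genes, of which Calca, Hs3st1 and Ccr8 were higher in the high controls in tests given below. Leaving Calca out cut high-set ILC2 from 671 to 577 in the WT control and from 459 to 382 in the App NL-G-F control. In acute colitis the cut was from 365 to 360 in WT and from 208 to 195 in App NL-G-F. In allergy it was from 378 to 348 and from 286 to 257, and in chronic colitis from 516 to 487 and from 318 to 305.

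In the low set the means went the other way, 7.65% in acute colitis (exact permutation p = 0.229), 4.10% in chronic colitis (p = 0.457) and 7.02% in allergy (p = 0.286) against 2.97% in controls. With both sets combined within each genotype, none of 7 comparisons passed. With so few groups no outcome could have passed over these 7 either, so the adjusted values cannot decide. The differences ran from -3.14 points (acute colitis in App NL-G-F) to 0.337 points (WT allergy against control), and the lowest exact permutation p was 0.514.

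**Figure D3:**
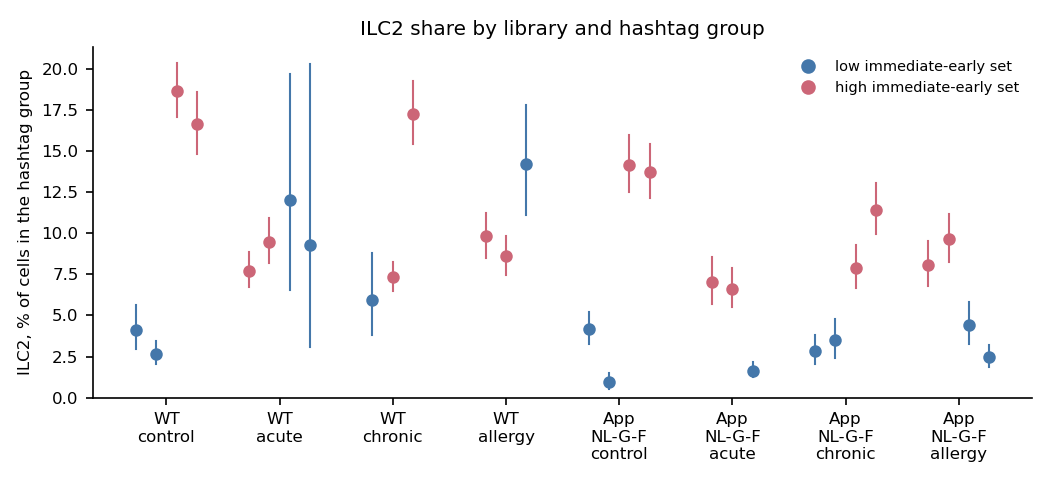
ILC2 as a percentage of the cells of each hashtag group with at least 50 cells (y axis), by library (x axis), with exact 95% intervals for counting error as bars and the set of each group as colour. The 4 high control groups sit between 13.7% and 18.6%, above the 8 high groups of acute colitis and allergy.

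Among the genes whose control and challenged groups did not overlap in the high set, Calca had the widest difference in ILC2. Its levels were 3689 and 6165 CPM in the 2 high groups of the WT control and 2486 and 6587 CPM in those of the App NL-G-F control. The 12 high groups of the challenged libraries ran from 150 to 570 CPM with a median of 305 CPM. No control group overlapped them.

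The same held for the number of cells. At least 1 Calca UMI was found in 85.1% of high-set ILC2 in the WT control and 85.8% in the App NL-G-F control, although these were the shallowest libraries for ILC2 (medians of 1940 and 2229 UMIs). In the challenged libraries the share ran from 26.9% to 51.2%, with medians of 2774 to 3476 UMIs. A Calca UMI also helped to select these cells. In cells chosen without Calca, the share was 82.7% in the WT control and 83.0% in the App NL-G-F control, against 22.1% to 48.3% in the challenged libraries. B cells, which should lack the transcript, had a Calca UMI in 0.592% of cells over all libraries, and their level in the high control groups was 40.8 CPM (median) against 2.07 CPM in the high challenged groups.

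In the low set the order was turned around for colitis, while the App NL-G-F allergy groups lay close to their control. The low groups of the WT control stood at 102 and 75.9 CPM and the App NL-G-F control group with at least 20 ILC2 at 401 CPM. The single low group of App NL-G-F acute colitis stood at 10648 CPM, with Calca in 52 of its 53 ILC2 (98.1%). In chronic colitis the low groups stood at 1775 CPM in WT and at 1635 and 1826 CPM in App NL-G-F, and in allergy at 275 CPM in WT and at 405 and 410 CPM in App NL-G-F. The 2 low groups of WT acute colitis, with 13 and 5 ILC2 and therefore in no test, stood at 7300 and 6307 CPM. Read by hashtag instead of by set, the 4 high control groups and the 3 low groups of acute colitis, all of hashtags 6 and 7, held the highest Calca levels, from 2486 to 10648 CPM. Other groups of hashtags 6 and 7 were far lower. The high cells of chronic colitis stood at 443 CPM in WT and 268 CPM in App NL-G-F, and the low allergy groups at 275 to 410 CPM.

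Since Calca was one of the genes that chose the cells, the comparison was repeated on cells chosen without it. With library and set means fitted over all genes by edgeR's quasi-likelihood test, Calca was then higher in controls than in challenged groups of the high set by 3.95 on the log2 scale (SE 0.214, adjusted p = 4.38e-11) and lower in the low set by -2.98 (SE 0.434, adjusted p = 0.0033), and the 2 effects differed by 6.93 (SE 0.531, adjusted p = 8.59e-08). When the libraries rather than the hashtag groups were the units, again on cells chosen without Calca, the high-set difference was 3.78 (SE 0.263, adjusted p = 1.96e-04). The difference between the sets with libraries as units was 6.24 with an adjusted p of 0.085, on cells chosen with all 7 genes. In the low set, on those cells, none of 4791 genes passed with libraries as units.

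**Figure D4:**
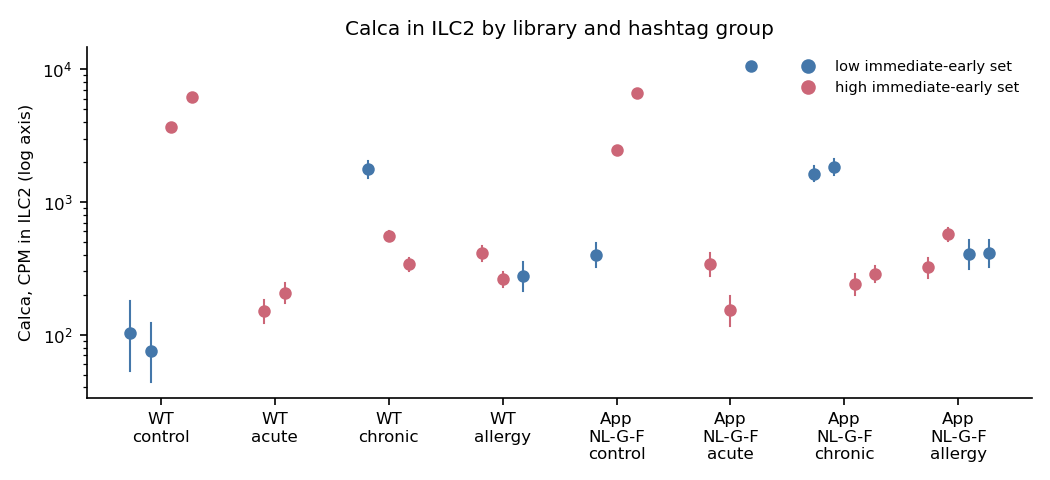
Calca in ILC2 (CPM, log y axis) for the hashtag groups with at least 20 ILC2, by library, with exact 95% Poisson intervals for counting error as bars. High-set control groups (2486 to 6587 CPM) and the low-set group of App NL-G-F acute colitis (10648 CPM) stand above the remaining groups.

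The rest of the ILC2 transcriptome was compared in the same way, controls against all challenged libraries in the high set, with 8680 genes tested. Of these, 804 genes (9.26%) passed at an adjusted p under 0.05, 374 higher and 430 lower in controls, shares of 4.31% and 4.95% of the genes tested. Among them 163 (1.88%) had no overlap between the 4 control and 12 challenged groups. Without hashtag 7 of the WT control 447 genes passed, and 363 without hashtag 7 of the App NL-G-F control. With libraries as units, 310 of 9228 genes (3.36%) passed. B cells of the same groups moved the same way by at least 50% as much, on the log2 scale, for 26.6% of the 804 genes.

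Among ILC2 transcription factors, 6 of the 13 on the list passed, 4 higher and 2 lower in controls. Rora ran from 237 to 582 CPM in the high control groups and from 124 to 198 CPM in the challenged ones, a log2 difference of 1.34 (SE 0.184, adjusted p = 4.04e-05). Nfil3, a factor needed for ILC development, was higher by 1.49 (SE 0.205), Pparg by 0.76 and Ets1 by 0.46. Bcl11b, which maintains ILC2 identity, was lower by -0.60 and Id2, the repressor common to all ILC, by -0.54. Gata3 itself differed by 0.34, with an adjusted p of 0.138, in cells chosen without it. Without hashtag 7 of the WT control, or without that of the App NL-G-F control, Pparg, Ets1 and Bcl11b no longer passed, and Id2 did not pass without the latter.

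Receptors for cytokines and costimulation formed the next list. Of 15 on the list 13 were tested and 4 passed, with Tnfrsf18 (GITR), Icos and Il4ra higher and the inhibitory lectin Klrg1 lower in controls. Tnfrsf18 ran from 548 to 1273 CPM in the high control groups and reached 551 CPM in 1 challenged group, a log2 difference of 1.19 (SE 0.149, adjusted p = 1.38e-05). The alarmin receptor gene Il1rl1, 1 of the 7 selecting genes, differed by 0.16 in cells chosen without it (adjusted p = 0.476), and Il7r by 0.12 (adjusted p = 0.484). Icos and Il4ra did not pass without hashtag 7 of either control library, and Klrg1 passed in 13 of the 22 fits that left out 1 hashtag group.

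Ramp3 and Ramp1 moved in opposite directions. Ramp3, which with the calcitonin-like receptor forms a receptor for adrenomedullin, ran from 128 to 856 CPM in the high control groups and from 11.5 to 109 CPM in the challenged ones, a log2 difference of 3.17 (SE 0.328, adjusted p = 1.21e-06). Ramp1, the CGRP co-receptor, ran from 120 to 243 CPM and from 221 to 309 CPM, a difference of -0.67 (SE 0.135, adjusted p = 0.00209). Nmur1 was lower in controls by -0.91 and Cysltr1 by -0.95 (SE 0.129, adjusted p = 3.86e-05), with 106 to 157 CPM in the control groups against 168 to 279 CPM in the challenged groups. These 4 were the genes of the neural and lipid receptor list that passed, of 9 tested and 10 listed.

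Effector genes moved both ways. Of 18 listed genes 13 were tested and 6 passed, with Il5, Pdcd1 and Dgat2, which makes triglycerides, higher and Arg1, Ccl1 and Lif lower in controls. Pdcd1, which encodes the inhibitory receptor PD-1, ran from 210 to 479 CPM in the high control groups and from 16.9 to 126 CPM in the challenged groups, a log2 difference of 2.67 (SE 0.246, adjusted p = 2.28e-07). After thinning to 1000 UMIs per cell, 27.5% of ILC2 in the high control groups and 5.71% in the high challenged groups had a Pdcd1 UMI, against 0.191% and 0.147% of B cells, and before thinning the ILC2 shares were 40.4% and 13.5%. Arg1 ran from 22.5 to 58.3 CPM in the control groups and from 43.2 to 122 CPM in the challenged groups, a difference of -1.17 (SE 0.186, adjusted p = 2.10e-04) whose adjusted p was 0.052 with libraries as units.

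Il5 differed in level, while the share of cells with a UMI of it depended on depth. Its levels were 43.4 and 286 CPM in the high WT control groups and 5.00 and 279 CPM in those of the App NL-G-F control, against 2.42 to 30.1 CPM in the challenged groups, so that 1 control group lay within the challenged range. The log2 difference was 3.57 (SE 0.570, adjusted p = 2.21e-04) and fell to 1.17 (adjusted p = 0.697) without hashtag 7 of the App NL-G-F control. At least 1 Il5 UMI was found in 36 of 1130 ILC2 (3.19%) in the high control groups and in 68 of 2071 (3.28%) in the challenged groups, or 2.74% and 1.51% after thinning, and the control cells were shallower (median of 2046 against 3077 UMIs). A single control cell carried 62 Il5 UMIs and no challenged cell more than 8.

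The cytokine genes Il13 and Csf2 and the selecting gene Areg did not pass between hashtag groups. Areg stood at 369 to 1245 CPM in the high control groups and 508 to 1047 CPM in the challenged groups, a log2 difference of -0.41 with an adjusted p of 0.318 in cells chosen without Areg. With libraries as units, in the same cells, Areg came close to the threshold (-0.50, SE 0.126, adjusted p = 0.0564). Il13 stood at 11.7 to 76.8 CPM and 9.75 to 257 CPM (log2 difference -1.05, adjusted p = 0.118), and Csf2 at 47.9 to 324 CPM and 58.2 to 227 CPM (-0.05, adjusted p = 0.971). The other selecting genes were likewise tested in cells chosen without each of them. Hs3st1 was higher in controls by 1.15 (SE 0.213, adjusted p = 0.00104) and Ccr8 by 0.83 (SE 0.201, adjusted p = 0.0107), and Rnf128 differed by 0.02 (adjusted p = 0.967). With libraries as units Hs3st1 passed again (1.02, adjusted p = 0.0161) and Ccr8 did not (0.78, adjusted p = 0.151).

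Homing genes, where they moved, were lower in the controls. Cxcr6 ran from 247 to 353 CPM in the high control groups and from 373 to 645 CPM in the challenged ones, a log2 difference of -0.77 (SE 0.152, adjusted p = 0.00183). Ccr9, a gut-homing chemokine receptor, was lower by -0.91 and the integrin chain Itga4 by -0.40, the latter in 13 of 22 fits that left out 1 hashtag group. The other 6 of the 9 homing genes tested, of 13 listed, did not pass.

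Beyond the lists, the genes with no overlap and the widest log2 differences were, besides Calca, the Notch ligand Jag1 (3.85), D630045J12Rik (3.50), Prr15 (3.46) and the kinesin Kif5c (3.28) on the higher side of the controls. On the lower side they were the scavenger receptor Stab2 (-2.57), Flrt2 (-1.90), the clock-output factor Dbp (-1.65), the calmodulin-binding gene Nrgn (-1.65) and Gm17745 (-1.61). Stab2 ran from 7.07 to 31.7 CPM in the high control groups and from 36.5 to 181 CPM in the challenged ones. Jag1, Prr15, Kif5c and D630045J12Rik reached at most 6.59 CPM in a challenged group, so their differences rest on few UMIs.

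Marker lists of other cells were examined for the same comparison. None of the 5 tested NK and ILC1 genes, 4 T cell genes, 5 B cell and myeloid genes, 7 cell cycle genes or 10 immediate-early genes passed, and of 7 mast cell and basophil genes 1 passed, Kit, which ILC2 also express, with 235 to 330 CPM in the high control groups and 75.0 to 299 CPM in the challenged groups (log2 difference 1.10, SE 0.161, adjusted p = 8.22e-05). With libraries as units, 15 of the 24 listed genes that passed, selecting genes aside, did so again and all 24 kept their sign. Leaving Calca out of the selection left all 24 past the threshold.

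**Figure D5:**
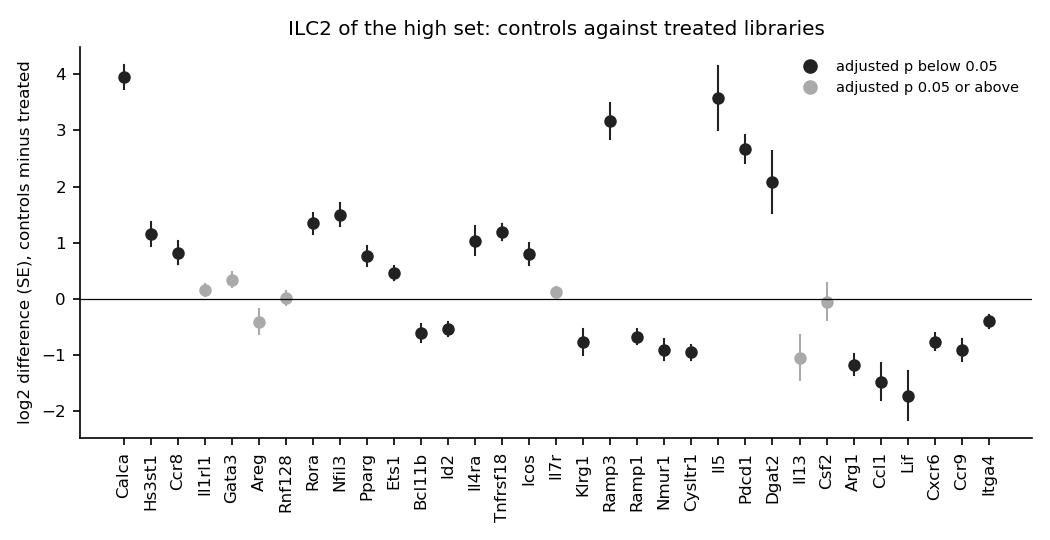
Log2 difference between control and challenged groups of the high set in ILC2 (y axis, with SE as bars) for listed genes, ordered by role (x axis), with grey points where the adjusted p was 0.05 or above. Each selecting gene is shown from cells chosen without it. Calca (3.95), Il5 (3.57), Ramp3 (3.17) and Pdcd1 (2.67) lie highest and Lif (-1.72) and Ccl1 (-1.47) lowest.

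In the low set the same comparison, 3 control groups against 7 challenged groups, passed 30 of 8680 genes (0.346%). Jund, a partner of Fos in the AP-1 factor, ran from 630 to 885 CPM in the controls and from 298 to 597 CPM in the challenged groups (log2 difference 0.88). Nrip1, a nuclear receptor co-repressor, was lower in the controls, with 76.6 to 108 CPM against 184 to 309 CPM (-1.39). B cells moved alike for 20 of the 30 genes. Without hashtag 4 of the WT control 17 genes passed, and with libraries as units none of 4791 genes (0%) passed, 226 having an unadjusted p under 0.05.

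The control-to-challenged difference itself was then compared between the sets. It differed for 215 of 8680 genes (2.48%), among them Pdcd1 (4.09, SE 0.519, adjusted p = 1.50e-04), Rora (1.75), Tnfrsf18 (1.59), Arg1 (-2.02), Cysltr1 (-1.84) and Cxcr6 (-1.28), which like Calca were higher in controls in 1 set and nominally lower in the other, or the reverse. Ctla2a, a cysteine protease inhibitor, ran from 1202 to 1755 CPM in the high controls and from 229 to 600 CPM in the high challenged groups, but from 290 to 651 CPM in the low controls and from 510 to 2009 CPM in the low challenged groups. With libraries as units none of 7778 genes (0%) passed, although 742 had an unadjusted p under 0.05. Leaving out 1 hashtag group gave 130 to 267 genes, with 130 without hashtag 5 of the WT control, 141 without hashtag 7 of the App NL-G-F control, 142 without hashtag 5 of chronic colitis in App NL-G-F and 139 without hashtag 7 of allergy in that genotype. Low groups that were the only ones fitted for their library, such as that of App NL-G-F acute colitis, were not left out.

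The 3 challenges were next set side by side, each against the same 4 high control groups. Acute colitis differed in 551 of 8073 genes (6.83%), chronic colitis in 453 (5.61%) and allergy in 463 (5.74%). Leaving out 1 hashtag group gave 293 to 708, 218 to 637 and 245 to 626 genes, the lowest without hashtag 5 of App NL-G-F acute colitis, without hashtag 7 of the App NL-G-F control, and without that control group or hashtag 5 of WT allergy. In cells chosen without it, Calca was lower than in controls by -4.44, -3.71 and -3.66 on the log2 scale, and over all ILC2 Pdcd1 by -3.18, -2.27 and -2.54. Arg1 was higher by 1.58, 1.22 and 0.73 and Cxcr6 by 0.85, 0.87 and 0.60, all past the threshold, and since the controls are shared these values are not independent of each other. Of the 10 immediate-early genes 4 passed as lower than in controls with acute colitis, Egr1 (-0.74), Zfp36 (-0.66), Ier2 (-0.56) and Junb (-0.42), and none passed with the other challenges. Trbc2 passed as higher with acute colitis (0.57).

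Cytokine and chemokine genes passed in different challenges, without a test of the difference between them. Ccl1 was higher with acute colitis (1.95, adjusted p = 0.00333) and allergy (1.32, adjusted p = 0.049), and Lif with chronic colitis (1.81, adjusted p = 0.0455). Il13 ran from 53.2 to 257 CPM (median 95.5) in the high acute groups against 11.7 to 76.8 CPM in the controls (log2 difference 1.92, SE 0.456, adjusted p = 0.0163), with 0.85 (adjusted p = 0.372) in chronic colitis and 0.40 (adjusted p = 0.772) in allergy. These levels rest in part on single cells. In high-set ILC2, 1 cell held 33 of 131 Il13 UMIs in WT acute colitis and 34 of 100 in App NL-G-F acute colitis. In the controls, 1 cell held 32 of 88 in WT and 10 of 22 in App NL-G-F. Il6 was higher in acute colitis by 1.91 (adjusted p = 0.0417). The neutrophil granule genes Camp (5.05) and Ltf (4.43) also headed the acute comparison. Camp had a median of 1027 CPM in the high acute ILC2 and 450 CPM in the B cells of the same groups, against 29.5 and 216 CPM in the controls, and the part of neutrophil transcripts in it was not tested.

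Combining both sets, with the library as the only term, removed most of these differences. Of 7801 genes, 66 (0.846%) differed with acute colitis, 69 (0.885%) with chronic colitis and 77 (0.987%) with allergy over both genotypes, and B cells moved alike for 49, 58 and 51 of them. Ribosomal and respiratory chain genes made up 32, 36 and 40 of these. Within WT alone 95 (1.22%), 112 (1.44%) and 105 (1.35%) genes differed, of which 81, 101 and 78 moved alike in B cells. Within App NL-G-F none passed in edgeR's quasi-likelihood test in any of the 3 challenges (0%), with 608, 397 and 510 genes at an unadjusted p under 0.05 and 1, 1 and 0 genes by DESeq2.

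Genotype was compared within the controls and over all treatments. Between the App NL-G-F and WT controls 92 of 7801 genes (1.18%) differed over both sets and 126 of 8073 (1.56%) in the high set. Over all treatments 36 of 7801 genes (0.461%) differed between App NL-G-F and WT, and 28 of them moved alike in B cells. Only Ifi208, Trbc2 and Gapdh had no overlap between the 14 App NL-G-F and 12 WT groups. Ifi208, an interferon-inducible gene, ran from 0 to 10.0 CPM in App NL-G-F and from 27.2 to 64.8 CPM in WT (log2 difference -3.62, SE 0.296, adjusted p = 3.01e-08), and B cells had medians of 1.55 and 12.4 CPM. Trbc2 ran from 25.4 to 69.9 CPM in App NL-G-F and from 77.2 to 202 CPM in WT (-1.31, SE 0.112, adjusted p = 4.58e-08), while B cells had 1.45 and 1.84 CPM. Reads of Trbc2 and its near-identical paralogue Trbc1 may be split between the pair by the counting, so the value is uncertain for either gene.

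In the high set alone 91 of 8073 genes (1.13%) differed by genotype. Areg ran from 369 to 760 CPM (median 590) in App NL-G-F and from 598 to 1245 CPM (median 945) in WT, with overlap. In cells chosen without Areg its log2 difference was -0.73 (SE 0.156, adjusted p = 0.0338). A pair of stress-induced genes did not overlap, Gadd45b with 194 to 315 CPM against 361 to 865 CPM and the nuclear receptor Nr4a3 with 41.4 to 109 CPM against 120 to 251 CPM, and the immediate-early genes Junb and Nr4a1 were also lower in App NL-G-F. The summed immediate-early level of T cells ran from 3704 to 5542 CPM in the high App NL-G-F groups. In the high WT groups it ran from 4234 to 7188 CPM. The part of this level in the genotype differences was not tested. Genotype effects differed between treatment and control for 51 genes (0.654%) with acute colitis, 51 (0.654%) with chronic colitis and 20 (0.256%) with allergy, over both sets.

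At the level of single cells, joint detection of cytokine transcripts varied by pair. After thinning, 56 of 3144 high-set ILC2 had an Il5 UMI and 110 an Il13 UMI, and 10 had both, against 1.96 if the 2 were unrelated. Il13 and Csf2 were both found in 22 cells against 7.07, whereas Il13 and Il4 were both found in 8 cells against 7.14 and Il13 and Arg1 in 5 against 6.79. Cells of 1 hashtag group are not independent, so these counts are a description.

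Depth and library quality were as follows. The libraries held 4479 to 6747 cells with 1 hashtag, 74.7% to 94.5% of the cells that passed the filters, at medians of 2647 to 3968 UMIs. Any pair of libraries shared 30 to 68 cell barcodes, at most 1.28% of the smaller. The App gene is altered by knock-in outside the ILC2 genes described here and its transcript was not used to check the labels.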

How the data were processed

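CD45.2+ brain cells of 8 libraries, 1 for each genotype and treatment, were profiled on a 5′ droplet platform with antibody hashtags. The authors deposited unnormalized UMI counts per barcode for genes and hashtags together, with empty barcodes left in. Per the submitters' processing notes the counts were made with Cell Ranger 6.1.2 on mm10. The headers of the counts name another Cell Ranger version, so the version used is uncertain. Barcodes with no fewer than 500 gene UMIs and 200 genes, and no more than 5% of UMIs from mitochondrial genes, were kept when the leading hashtag had at least 50 counts and at least 3 times those of the next one. Cells with several hashtags were thereby dropped, no doublet caller was run, and pairs of cells sharing a hashtag stay in. Cell selection by transcripts depends on depth and on free RNA in the droplets.

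UMIs of ILC2 were summed per hashtag group, and groups with at least 20 ILC2 were fitted with edgeR 4.0.16 in R 4.3.3 (TMM, filterByExpr, quasi-likelihood test, Benjamini-Hochberg adjustment over all genes tested, threshold 0.05), which is also the source of every log2 difference, SE and adjusted p of a gene given. Fits used library means, library means of the high set alone, and library and set means. Shares were compared over groups with at least 50 cells by two-sided exact permutation tests, with Python 3.11.15, numpy 2.4.6, scipy 1.17.1 and pandas 2.3.3, and figures were drawn with matplotlib 3.10.9. The alternatives were other selection thresholds, stricter exclusion, thinned cells, other denominators, DESeq2 1.42.0, no filter on low counts, a T cell immediate-early covariate, a minimum of 50 cells and leaving out each hashtag group. In the fit by set, a group that was the only one fitted for its library and set was not left out. The fits by set, with libraries as units and with each selecting gene left out of the selection were added after seeing the data. The cells, gene lists and tests were chosen with earlier results of these data known. Named genes are the selecting genes, listed genes, the 5 highest and 5 lowest log2 differences per contrast among genes past the threshold without overlap, and the 20 genes highest in ILC2 against other lymphocytes. Counts simulated with known changes gave back 20% of 2-fold and 78.9% of 4-fold changes for acute colitis in App NL-G-F (7458 genes), and 63.4% and 94.9% for controls against challenged groups of the high set (8048 genes). Upstream sequences were taken from RefSeq for GRCm38.p6, in which all 6 genes shown were found.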

Additional observations from a re-analysis of the deposited data

Results flagged for a closer look

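Each value here stands apart by a fixed criterion, and no explanation was weighed. Rnf128 in ILC2 of WT chronic colitis hashtag 7 was 406 CPM, while the other 3 high groups of chronic colitis lay between 567 and 582 CPM. It was the only gap of its kind among 66 sets of 4 to 10 groups examined, and chance marks about 1 in 20 such sets.

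Effects that differed between genotypes or between the immediate-early sets by a test of the difference itself make up the rest. Genotype changed the difference from control of 51 genes with acute colitis, 51 with chronic colitis and 20 with allergy. The difference between controls and challenged groups was unlike in the high and low sets for 215 genes.

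The named genes among these were lower in controls of the high set relative to the low set for Stab2 (-6.70), Tagap (-5.43), Ccl1 (-4.27), Naf1 (-3.85), Slc6a6 (-3.73), Arg1 (-2.02), Cysltr1 (-1.84) and Cxcr6 (-1.28), each a difference of log2 differences in edgeR. They were higher for Il7r (0.63), Kit (1.41), Ccr8 (1.46), Tnfrsf18 (1.59), Rora (1.75), Ramp3 (3.999), Pdcd1 (4.09), Dkk3 (5.05), Ret (5.45), Prr15 (5.82) and Calca (6.71). Some of the widest rest on few UMIs. In low-set ILC2, Ret had 0 UMIs in the WT control and 7 in the App NL-G-F control. Stab2 had 0 in low-set ILC2 of WT chronic colitis, WT allergy and App NL-G-F acute colitis. Calca and Ccr8 were also used to select the cells, and in cells chosen without each of them the values were 6.93 (adjusted p = 8.59e-08) and 1.72 (adjusted p = 0.0788). With libraries as units no gene passed this test in edgeR, with adjusted p = 0.085 for Calca and 742 genes at an unadjusted p under 0.05.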

How the results depend on the processing

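No paired analysis was possible because the labels give no replicate numbers shared between libraries. Shares changed direction under 14 of 138 alternatives other than leaving out a group, and WT allergy in the low set (10.8) moved in the same direction. The 14, in percentage points, were WT acute colitis in the low set (7.25), WT chronic colitis with 4 selecting genes (0.121), without Calca (0.177), as a ratio to T cells (34.1) and in the low set (2.56), WT allergy with 4 selecting genes (-0.560), stricter exclusion (-1.89), pooled cells (-1.70) and in the high set (-8.45), App NL-G-F chronic colitis as a ratio to T cells (12.9) and in the low set (0.620), App NL-G-F allergy in the low set (0.890), and, as ratios to T cells, chronic colitis in the high set (31.6) and the low set (-2.29). Leaving out each hashtag group in turn moved the App NL-G-F differences from -5.58 to -1.17 (acute colitis), -4.26 to 0.153 (chronic colitis) and -4.53 to -0.117 (allergy), the WT differences from -3.52 to 1.81, -3.88 to 2.37 and -2.28 to 3.04, and that between the controls from -4.91 to 0.418. In the high set it gave -8.78 to -7.13 (acute colitis), -6.90 to -3.59 (chronic colitis) and -7.46 to -5.81 (allergy).

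Counts of genes changed with the settings as follows. Without a filter on low counts there were 279, 297 and 315 genes for acute colitis, chronic colitis and allergy in WT, with 164, 102 and 125 for App NL-G-F, 261, 298 and 248 over both genotypes, 172 between controls, 208 between genotypes, and 179, 104 and 121 for genotype by treatment. The high set alone gave 358, 295 and 323 in WT, with 142, 25 and 21 for App NL-G-F and 551, 453 and 463 over both, and 91 by genotype. The low set alone gave 32 and 32 for chronic colitis and allergy in WT, with 59, 4 and 4 for App NL-G-F, 17 and 12 for chronic colitis and allergy over both, 46 between controls and 22 for genotype by chronic colitis. DESeq2 gave 1 and 1 in App NL-G-F acute and chronic colitis, 106 and 137 for chronic colitis and allergy over both, 35 for genotype by allergy, and 508 in the high and 58 in the low set of the fit by set. The T cell covariate gave 52 and 5 in App NL-G-F acute colitis and allergy, 107, 118 and 126 over both, and 87 and 33 for genotype by acute colitis and by allergy. Stricter exclusion gave 1 in App NL-G-F allergy, 6 in the low set and 346 for the difference between sets, and leaving Calca out of the selection gave 1 in App NL-G-F acute colitis and 19 in the low set. Libraries as units gave 310, 0 and 0 for the high set, the low set and their difference.

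Leaving out 1 hashtag group gave 49 to 104, 81 to 123 and 61 to 124 genes in WT, 0 to 16, 0 to 1 and 0 to 0 in App NL-G-F, 29 to 126, 33 to 87 and 36 to 113 over both genotypes (acute colitis, chronic colitis, allergy), 72 to 95 between controls, 20 to 51 by genotype, and 30 to 54, 43 to 55 and 17 to 26 for genotype by treatment. In the high set it gave 293 to 708, 218 to 637 and 245 to 626, with the lowest counts without hashtag 5 of App NL-G-F acute colitis, without hashtag 7 of the App NL-G-F control, and without that group or hashtag 5 of WT allergy, and 52 to 161 by genotype. The fit by set gave 363 to 875 (high), 17 to 32 (low) and 130 to 267 (difference). Its refits never left out the only low groups fitted for the App NL-G-F control, App NL-G-F acute colitis, WT chronic colitis and WT allergy. How far the low-set and difference counts rest on these groups was not tested. Over both sets, WT acute colitis hashtag 5 (49 and 29 genes for WT acute colitis and for both genotypes), WT allergy hashtag 5 (61 for WT allergy) and App NL-G-F control hashtag 7 (33 and 36 for chronic colitis and allergy over both) moved counts most.

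Named genes kept their direction and side of the threshold in 732 of 985 comparisons with an alternative, lost the call in 250, gained it in 1 (Gata3 in allergy of the high set, in cells chosen without Gata3), and reversed in 2, both in the low set alone, Neb in allergy (0.16) and Camp in chronic colitis (-0.28). Without the 2 farthest groups, r changed sign for Csf2 in the low set (-0.276), Arg1 in the low set (-0.269) and Csf2 in the high set (-0.185), none of which had passed. The low groups held 5 to 70 ILC2 each, against 91 to 411 in the high groups, and the causes of these changes were not tested.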
